A study of Homo sapiens with 8 samples.

Results

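The septins measured here were SEPTIN1, SEPTIN2, SEPTIN4, SEPTIN6, SEPTIN7, SEPTIN8, SEPTIN9, SEPTIN10 and SEPTIN11, which were 9 of the 17958 genes that had a probe set annotated to them alone. The set was built around SEPTIN10, which was taken for its low signal after LY2784544 in these same arrays, so its LY2784544 values chose it and are given as a description without a test. The other 8 genes were added as family members, and each of the 9 had exactly 1 probe set of its own. RNA from HEL cells, an erythroleukaemia line of human origin that depends on an activated JAK2 kinase, was hybridised to 8 Affymetrix arrays. Cells were treated for 48 h with 0.5 µM LY2784544, an inhibitor of JAK2, with 20 µM GRN163L, an oligonucleotide inhibitor of telomerase, with both agents, or with the vehicle DMSO as control. The treatments were made in 2 separate experiments with 1 array per group in each, and the labels do not repeat the doses for the combination. All groups come from the 1 cell line, and no source says more of how the experiments differed, so p-values cover only the variation among these 8 arrays.

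Septins are GTP-binding proteins that join end to end into rods of several different subunits and then into filaments and rings. These structures scaffold the cleavage furrow at cell division and set borders between membrane domains. They are sorted by sequence into the SEPT2 group (here SEPTIN1, SEPTIN2 and SEPTIN4), the SEPT6 group (here SEPTIN6, SEPTIN8, SEPTIN10 and SEPTIN11), SEPTIN7 alone, and the SEPT3 group (here SEPTIN9). A rod takes its subunits from different groups, and members of a group can take the same place in it. In blood, septins are best known from platelets and their precursors, the megakaryocytes.

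Values are log2 signals, so a difference of 1 is a doubling, and a gene was tested if its mean over the 8 arrays lay above 4.37, the 30th percentile. This left 12570 genes, and all 9 septins were among them. Of 6 measured erythroid markers 5 passed it (GATA1, TAL1, KLF1, EPOR and ALAS2, without SLC4A1), and the mean level of the 6 was 8.57 to 8.98 on every array. All 6 measured megakaryocyte markers passed it, with array means of 9.45 and 9.56 after LY2784544, 8.78 and 8.84 after GRN163L and 9.77 and 9.88 after the combination, against 8.87 and 8.90 in control. These markers did not move alike. The platelet chemokine PPBP averaged 8.45 after LY2784544, 5.91 after GRN163L and 9.07 after the combination, against 5.93 in control, and PF4, another, averaged 7.29, 6.05 and 8.11 after the same treatments, against 6.19 in control. After LY2784544 the other 4 averaged 11.33 (ITGA2B), 8.91 (GP9), 10.43 (GP1BA) and 10.61 (SELP), against 11.21, 8.97, 10.74 and 10.28 in control. Of 5 lymphocyte markers 1 passed (CD2), of 5 monocyte and neutrophil markers 3, and of 5 fibroblast markers 3, without LUM and DCN. The fibroblast marker PDGFRB averaged 4.66 after LY2784544, 4.95 after GRN163L and 4.80 after the combination, against 5.64 in control. COL1A1 averaged 5.39, 5.17 and 5.48 after the same treatments, against 5.19 in control, and COL1A2 averaged 4.59, 4.48 and 4.70, against 4.50 in control. The part of these markers in the septin values was not tested. Setting all arrays to 1 median would raise the differences from control by 0.10 after LY2784544 and 0.18 after the combination. It would lower those after GRN163L by 0.02.

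Promoter sequences are shown for SEPTIN10, the septin with the largest difference from control after LY2784544, and SEPTIN8, that with the largest after the combination. They come from RefSeq (GRCh38.p14), 250 bases before the start site for SEPTIN10 and a stretch around the match for SEPTIN8, written 5′ to 3′ on the gene's strand. Capitals mark the GC box (GGGCGG or CCGCCC) in SEPTIN10 and the GAS element (TTCNNNGAA), a sequence that STAT factors downstream of JAK2 are known to bind, in SEPTIN8. Both strands were searched. SEPTIN10 lies at chr2:109613967-109614216 on the minus strand and the SEPTIN8 stretches at chr5:132777240-132777305 and chr5:132778188-132778253, also minus.
SEPTIN10 promoter: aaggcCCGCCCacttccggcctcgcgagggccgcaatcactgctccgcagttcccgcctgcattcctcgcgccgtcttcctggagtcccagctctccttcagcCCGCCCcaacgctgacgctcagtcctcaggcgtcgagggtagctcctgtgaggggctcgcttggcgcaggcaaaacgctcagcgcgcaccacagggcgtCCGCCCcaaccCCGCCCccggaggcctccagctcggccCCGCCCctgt
SEPTIN8 first start site: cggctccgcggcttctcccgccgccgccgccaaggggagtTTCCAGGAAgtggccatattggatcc
SEPTIN8 second start site: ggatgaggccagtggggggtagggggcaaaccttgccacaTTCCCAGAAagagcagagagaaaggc
The SEPTIN10 window held 5 GC boxes and no GAS element, and the SEPTIN8 matches lay 26 and 201 bases before their start sites. For the 8 septins matched by symbol, a GAS element occurred in 6 of 25 windows from 4 genes (SEPTIN4, SEPTIN6, SEPTIN8 and SEPTIN9), against 6.57% of all 35116 windows in the table. A GC box occurred in 15 of 25, against 42.6% of all. The genes gave unequal numbers of windows, SEPTIN9 the most, and those of SEPTIN7 overlap, so the 25 are not independent. A match describes letters in a window and not a bound site.

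SEPTIN10, a SEPT6-group subunit, had the lowest signals of any group after LY2784544. It measured 4.09 and 3.42 after LY2784544, 6.28 and 6.18 after GRN163L, 5.42 and 5.64 after the combination, and 6.11 and 6.25 in control, for experiments 1 and 2. The arrays formed 3 separated levels: LY2784544 lowest, the combination between, and GRN163L and control together at the top with overlapping values. SEPTIN10 averaged 3.76 ± 0.47 after LY2784544 and 6.18 ± 0.10 in control (SD, n = 2 each). That difference of -2.43 corresponds to a signal 5.37-fold lower, with -2.02 in experiment 1 and -2.83 in experiment 2. Both LY2784544 arrays lie under 4.37, where RMA compresses differences, so the fold may be understated. In bulk RNA fewer expressing cells and less RNA per cell cannot be told apart.

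**Figure D1:**
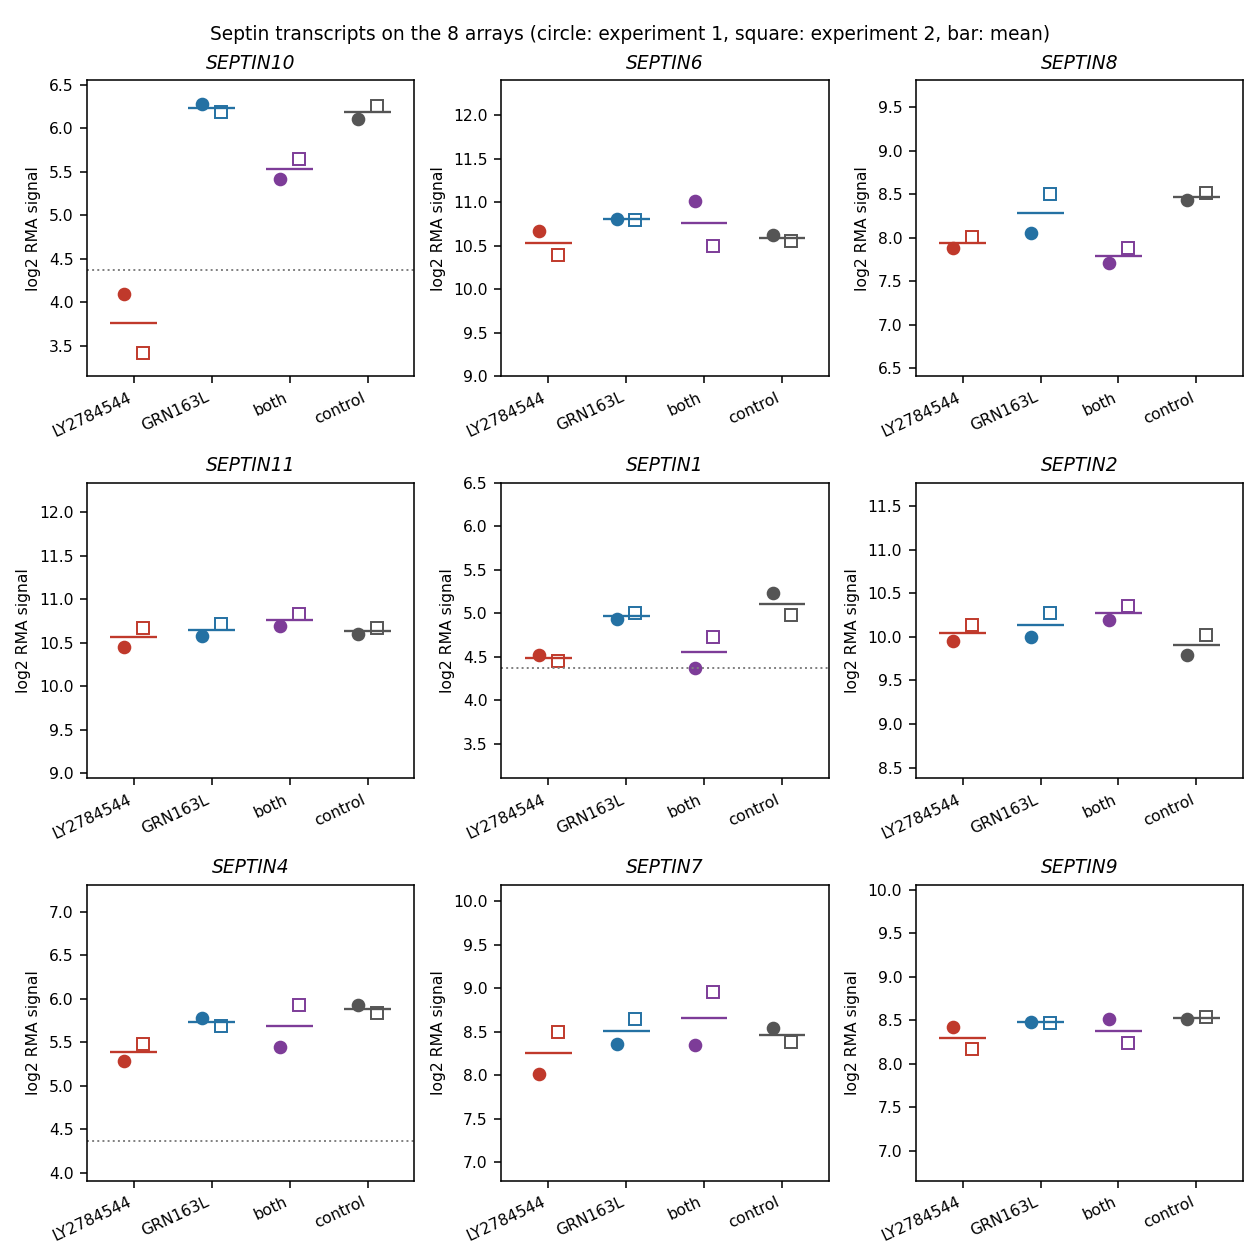
Log2 signal of the 9 septins on each of the 8 arrays, in 1 panel per gene, by treatment (both: the combination) and experiment, with the dotted line at the level of 4.37 that set which genes were tested. SEPTIN10 after LY2784544 sits at 4.09 and 3.42, below its other 6 arrays, which lie between 5.42 and 6.28.

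After the combination, SEPTIN10 stood between the LY2784544 and the GRN163L arrays. It averaged 5.53 ± 0.16 after the combination and 3.76 ± 0.47 after LY2784544, a difference of 1.78, or 3.42-fold higher. This may be understated since both LY2784544 arrays lie under 4.37. The difference was 1.33 in experiment 1 and 2.22 in experiment 2. It uses the LY2784544 arrays that chose the gene, so it is given without a test. The same holds for the interaction, the combination's difference from LY2784544 minus that of GRN163L from control. It was 1.73 and rests on the same dim values.

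The difference of the combination from GRN163L uses none of the arrays that chose SEPTIN10 for its low values. Its interval and p-values do draw on them, since the fit pools the spread of all 8 arrays. The LY2784544 pair varied most (SD 0.47, against 0.07 for GRN163L and 0.16 for the combination). SEPTIN10 was lower by 0.70 there (95% interval -1.21 to -0.19, both combination arrays below both GRN163L arrays), with -0.86 in experiment 1 and -0.54 in experiment 2. This did not pass the threshold in limma (unadjusted p = 0.0128, adjusted p = 0.221, or 0.137 with the experiment as a block). Against control, which it shares with the choice, the combination was lower by 0.65 (95% interval -1.16 to -0.14, adjusted p = 0.132 in limma, 0.0884 with the block). GRN163L alone differed from control, also shared with the choice, by 0.05 (95% interval -0.46 to 0.56, adjusted p = 0.995 in limma).

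SEPTIN8, another SEPT6-group subunit, passed the threshold in 1 fit only, the combination against control with the experiment as a block. It measured 7.88 and 8.01 after LY2784544, 8.06 and 8.50 after GRN163L and 7.71 and 7.88 after the combination, against 8.43 and 8.51 in control. The combination arrays lay below all control and GRN163L arrays, while the GRN163L array of experiment 2 reached the control level. The combination differed from control by -0.68 (SE 0.18, 95% interval -1.09 to -0.26), with -0.72 and -0.63 in experiments 1 and 2. The adjusted p in limma was 0.0804, and 0.0298 with the experiment as a block. LY2784544 alone differed by -0.53 (SE 0.18, adjusted p = 0.257), which did not pass. Against GRN163L the combination differed by -0.49 (adjusted p = 0.286, 0.134 with the block). A dim probe set annotated to SEPTIN8 together with CCNI2 was left out, since its signal cannot be given to either gene. It had 4.55 and 4.73 after LY2784544 and 4.72 and 4.46 after GRN163L. After the combination it had 4.87 and 4.64, against 4.62 and 4.63 in control, so it was not lower there.

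For SEPTIN6 and SEPTIN11, the other SEPT6-group members that were tested, no difference from control passed. SEPTIN6 had 10.67 and 10.39 after LY2784544, 10.81 and 10.79 after GRN163L and 11.01 and 10.50 after the combination, against 10.62 and 10.55 in control. Its combination arrays stood furthest apart, 1 above and 1 below both control arrays. SEPTIN11 had 10.45 and 10.67 after LY2784544, 10.58 and 10.71 after GRN163L and 10.69 and 10.83 after the combination, against 10.60 and 10.67 in control. Their largest differences from control were 0.22 for SEPTIN6 after GRN163L and 0.13 for SEPTIN11 after the combination.

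In the SEPT2 group, no difference of SEPTIN1, SEPTIN2 or SEPTIN4 from control passed the threshold. SEPTIN1, which is known chiefly from lymphoid cells, had 4.52 and 4.45 after LY2784544, 4.93 and 5.0 after GRN163L and 4.37 and 4.73 after the combination, against 5.23 and 4.98 in control. Its LY2784544 and combination arrays, which stood close to the test level of 4.37, all lay below its control arrays. The differences were -0.62 after LY2784544 (95% interval -1.02 to -0.22, adjusted p = 0.160 in limma) and -0.56 after the combination (adjusted p = 0.115). SEPTIN4, of which 1 product, ARTS, binds the apoptosis inhibitor XIAP, had 5.29 and 5.48 after LY2784544, 5.78 and 5.69 after GRN163L and 5.45 and 5.93 after the combination, against 5.93 and 5.84 in control. Its difference after LY2784544 was -0.50 (adjusted p = 0.301), and its combination arrays overlapped control. SEPTIN2, a subunit of the core rod, had 9.95 and 10.14 after LY2784544, 10.00 and 10.27 after GRN163L and 10.20 and 10.36 after the combination, against 9.79 and 10.02 in control, with a combination difference of 0.38 (adjusted p = 0.240).

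SEPTIN7, the subunit of its own group that most rods need, had 8.02 and 8.50 after LY2784544, 8.36 and 8.65 after GRN163L and 8.35 and 8.96 after the combination, against 8.55 and 8.38 in control. Its groups overlapped in every comparison with control. RefSeq lists 15 pseudogenes named for SEPTIN7, 1 each for SEPTIN10 and SEPTIN2, and 23 for SEPTIN14. Whether the probe sets of these genes also read their pseudogenes was not tested. SEPTIN9, which sits at a rod's end or centre, had 8.42 and 8.17 after LY2784544, 8.48 and 8.47 after GRN163L and 8.51 and 8.24 after the combination, against 8.51 and 8.54 in control, and no difference of it passed the threshold.

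Against control after LY2784544, SEPTIN10 is left out of the counts because that contrast chose it. Of the other 8 septins 0 passed an adjusted p below 0.05 in limma, where 1.27% of the 12570 genes passed in either direction and 0.883% in the lower. An unadjusted p under 0.05 was reached by 3 of the 8 (SEPTIN1, SEPTIN4 and SEPTIN8), against 13.2% of all genes. Both LY2784544 arrays lay below both control arrays for 4 of the 8 (SEPTIN1, SEPTIN4, SEPTIN8 and SEPTIN9), against 25.2% of all genes. A lower mean was found for 7 of the 8, against 56.3% of all genes. The median difference was -0.23 over the 9 and -0.22 without SEPTIN10, against -0.04 over all genes. After the combination 0 of the same 8 passed in limma, against 3.47% of all genes. Without SEPTIN10, whose choice used the same control arrays, 2 of 8 had an unadjusted p under 0.05 (SEPTIN1 and SEPTIN8), against 23.1% of all. With the experiment as a block 1 passed, SEPTIN8, against 11% of all genes. For the 8 without SEPTIN10, both combination arrays lay above both control arrays in 2 and below in 2. Groups did not overlap for 53.7% of all genes. After GRN163L, again without SEPTIN10, 0 of 8 passed in limma and 0 had an unadjusted p under 0.05, against 0% and 4.73% of all genes. These 3 comparisons share the control arrays.

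**Figure D2:**
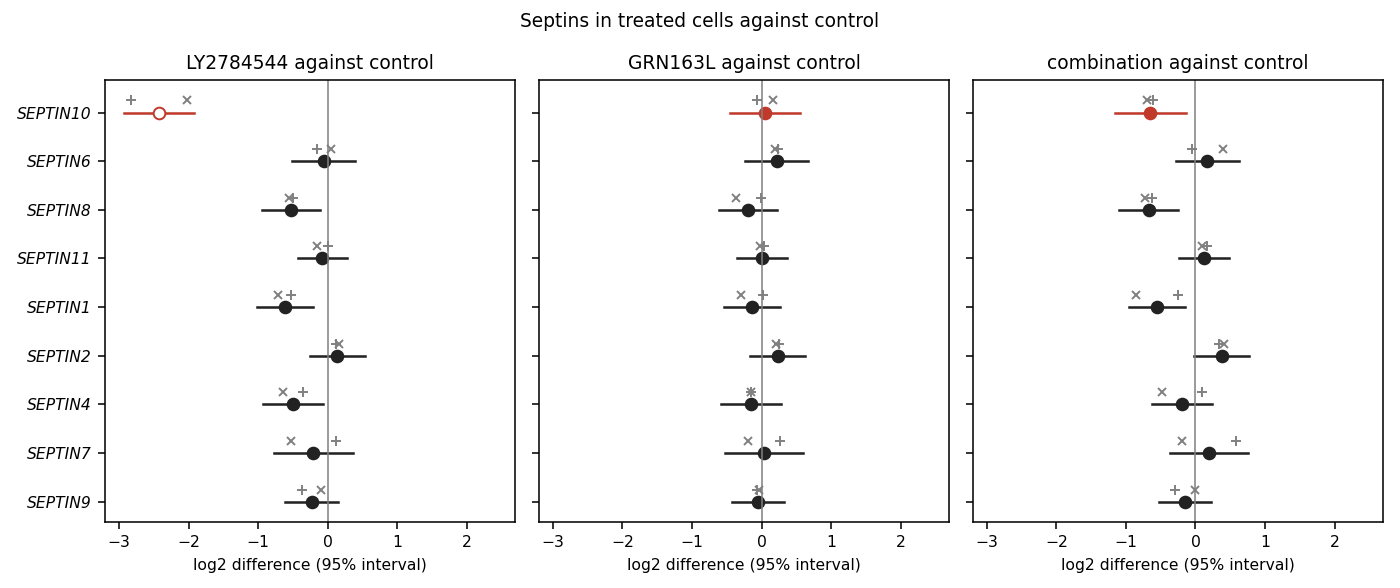
Log2 difference from control of each septin after LY2784544, GRN163L and the combination, with the 95% interval as a bar and the differences of experiments 1 and 2 as a grey × and +. SEPTIN10 after LY2784544 (open circle, a description) lies at -2.43, and the other 8 septins lie between -0.68 and 0.38 in all 3 comparisons. The bar at the open circle does not allow for the choice of SEPTIN10 by these values and is no test.

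Against LY2784544, which shares the arrays that chose SEPTIN10, 0 of the other 8 septins passed in limma after the combination. Over all genes 0.31% passed in either direction and 0.0796% in the higher. The 8 differed by -0.15 to 0.40, with the smallest adjusted p at 0.533. Against GRN163L 0 of 9 passed in limma, against 0.541% of all genes, and 3 had an unadjusted p under 0.05 (SEPTIN1, SEPTIN8 and SEPTIN10), against 14.4% of all. Both combination arrays lay below both GRN163L arrays for 3 of 9, the same genes, against 31.3% of all genes. For the interaction, 0 of the 8 septins other than SEPTIN10 passed in limma and 0 had an unadjusted p under 0.05, against 0% and 3.69% of all genes.

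**Figure D3:**
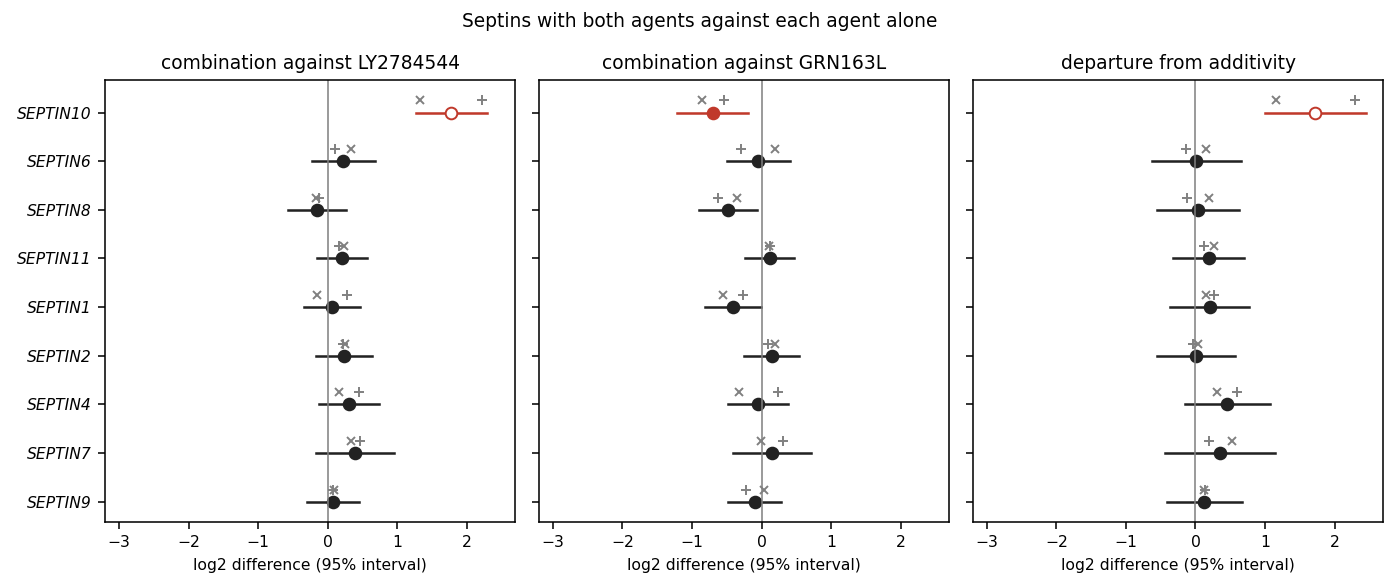
Log2 difference of the combination from LY2784544 and from GRN163L for each septin, and the interaction (departure from additivity). Bars are 95% intervals, and experiments 1 and 2 are a grey × and +. SEPTIN10 (open circle where given as a description) lies at 1.78 against LY2784544, at -0.70 against GRN163L and at 1.73 for the interaction. Bars at open circles do not allow for the choice of SEPTIN10 and are no test.

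The Borg proteins, effectors of the GTPase CDC42 that bind septins and shape their filaments, were measured with CDC42 itself as 6 genes, all tested. CDC42EP1 had 7.03 and 6.27 after LY2784544, 5.03 and 4.76 after GRN163L and 4.88 and 4.53 after the combination, against 4.70 and 4.71 in control. Both LY2784544 arrays stood above the other 6, which lay within 4.53 to 5.03. CDC42EP1 rose by 1.95 after LY2784544 (SE 0.25, adjusted p = 0.0112 in limma, where 0.39% of genes passed in the higher direction), by 2.33 in experiment 1 and 1.56 in experiment 2. The call is lost without control replicate 1 (1.94, adjusted p = 0.0946) or without control replicate 2 (1.95, adjusted p = 0.0844). The combination fell by 1.95 against LY2784544 (adjusted p = 0.0267, where 0.231% of genes passed in the lower direction) and differed from control by 0.00 (95% interval -0.58 to 0.58). This call held in 10 of 17 alternatives and was lost in a fit on the compared groups alone (adjusted p = 0.274). It was also lost without control replicate 1 or 2, GRN163L replicate 1 or 2 (-1.95 in each) or combination replicate 2 (-1.77), with adjusted p between 0.0632 and 0.0821, and without both experiment 1 arrays that hold LY2784544 (-1.74, adjusted p = 0.0570). CDC42EP1's correlation with SEPTIN10 over the 8 arrays was -0.86, a description over arrays that share the 4 groups.

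CDC42EP4 had 5.93 and 5.94 after LY2784544, 5.64 and 5.54 after GRN163L and 5.0 and 5.33 after the combination, against 5.93 and 6.20 in control. It fell by 0.90 after the combination (SE 0.18, adjusted p = 0.0341 in limma, where 2.71% of genes passed in the lower direction), and the LY2784544 arrays reached the control level. The adjusted p passed in 9 of 17 alternatives and ranged from 0.0151 to 0.179, so the call depends on settings. It was lost without control replicate 1 (-1.04), control replicate 2 (-0.77), GRN163L replicate 1 or 2 (-0.90 in both) or combination replicate 1 (-0.74), and also without both experiment 1 arrays that hold LY2784544, in a fit on the compared groups alone and under median normalization. CDC42EP3 had 9.11 and 9.26 after LY2784544, 9.07 and 9.32 after GRN163L and 9.37 and 9.67 after the combination, against 8.89 and 8.95 in control. Its combination difference of 0.60 did not pass (adjusted p = 0.0902 in limma) but did in the paired fit (adjusted p = 0.0344) and under median normalization (adjusted p = 0.0419).
Of the 6 genes, 1 rose and 0 fell after LY2784544, 0 rose or fell after GRN163L (1 had an unadjusted p under 0.05, CDC42EP4, against 4.73% of all genes), and 0 rose and 1 fell after the combination. The shares of all genes past the threshold in either direction were 1.27%, 0% and 3.47%.

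**Figure D4:**
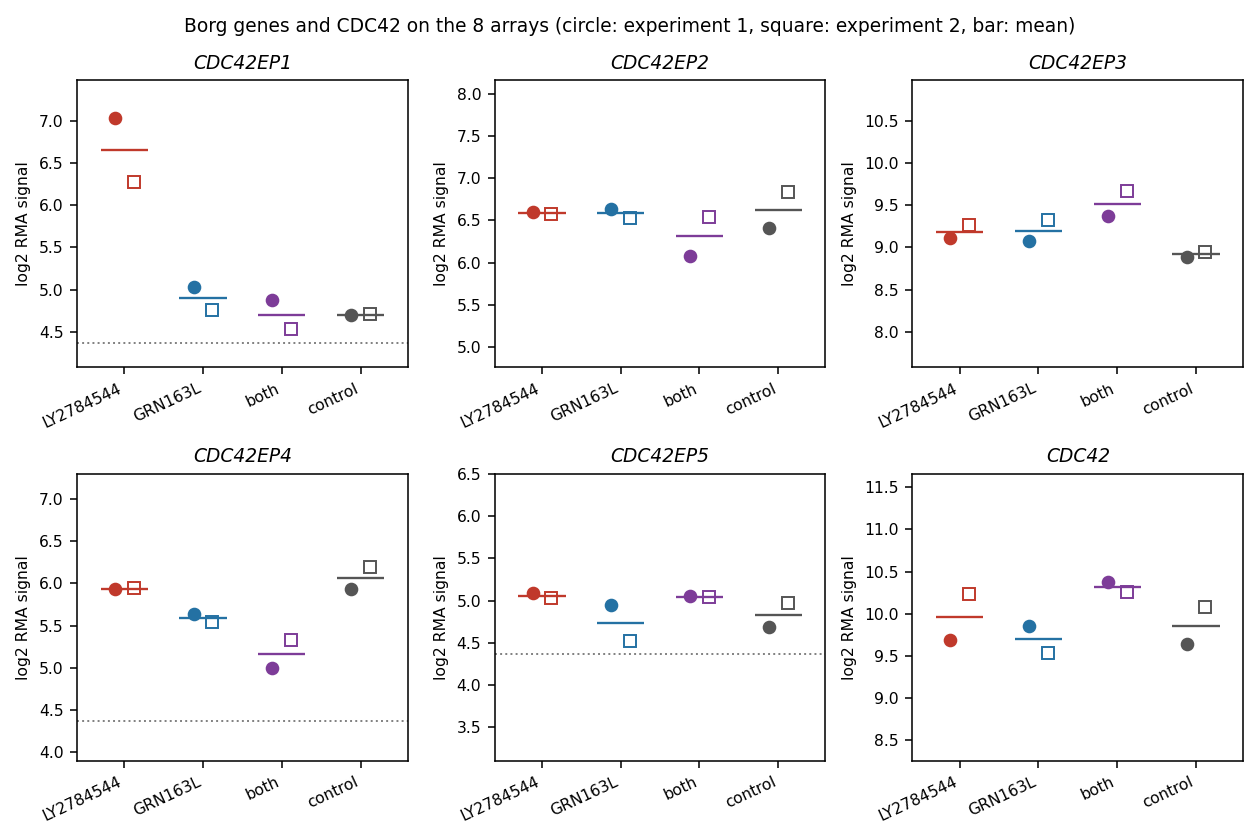
Log2 signal of CDC42 and the 5 Borg proteins (CDC42EP1 to CDC42EP5) on each array by treatment and experiment, with the dotted line at 4.37. CDC42EP1 after LY2784544 stands at 7.03 and 6.27, above its other 6 arrays between 4.53 and 5.03.

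Of 7 further septin partners 0 passed in limma in any comparison with control, where 1.27%, 0% and 3.47% of all genes passed after LY2784544, GRN163L and the combination. An unadjusted p under 0.05 was reached by 1 of the 7 after LY2784544, 1 after GRN163L and 0 after the combination, against 13.2%, 4.73% and 23.1% of all genes. They were the scaffold anillin (ANLN), the myosins MYH9 and MYH10, ARHGEF18, MAP4, XIAP and STX1A. MYH10, a nonmuscle myosin of the contractile ring, had 8.71 and 9.46 after LY2784544, 9.94 and 10.03 after GRN163L and 9.01 and 9.62 after the combination, against 10.03 and 9.80 in control. Its difference after LY2784544 was -0.83 (adjusted p = 0.230), with the experiment 1 array lower. Of 15 cytokinesis genes 0 passed in limma in any comparison with control, against the same 1.27%, 0% and 3.47% of all genes. An unadjusted p under 0.05 was reached by 2 after LY2784544, 0 after GRN163L and 3 after the combination, against 13.2%, 4.73% and 23.1%. A lower mean than in control was found for 14 after LY2784544 and 10 after the combination, against 56.3% and 57.2% of all genes. Their medians were -0.29 after LY2784544 and -0.27 after the combination, against -0.04 and -0.07 over all genes. For CEP55 and ECT2 the lowest values stood on experiment 1 arrays. CEP55, a midbody protein, had 5.79 and 7.27 after LY2784544 against 7.69 and 7.70 in control, and ECT2, an activator of RHOA at the furrow, had 6.35 and 7.39 after the combination against 8.02 and 7.75 in control. Without replicate 2 of the treated group CEP55 passed after LY2784544 (-1.91, adjusted p = 0.0304), and ECT2 (-1.54, adjusted p = 0.0410) and AURKB (-1.29, adjusted p = 0.0285) passed after the combination. SEPTIN10 differed from control by more in experiment 2 after LY2784544 (-2.83, against -2.02 in experiment 1) and by slightly more in experiment 1 after the combination (-0.69, against -0.61 in experiment 2).

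The nearest genes of SEPTIN10 on chromosome 2 were SH3RF3, MALL and SOWAHC among those tested. Against control 0 of 3 passed in limma after LY2784544, GRN163L or the combination, where 1.27%, 0% and 3.47% of all genes passed. An unadjusted p under 0.05 was reached by 0, 0 and 1 (SH3RF3), against 13.2%, 4.73% and 23.1% of all genes. With 3 genes, counts of 0 do not differ visibly from these shares. SOWAHC, whose start site lies 398 bases from that of SEPTIN10 on the opposite strand, had 4.54 and 4.40 after LY2784544, 4.85 and 4.69 after GRN163L and 4.53 and 4.43 after the combination, against 4.74 and 4.53 in control. Its difference after LY2784544 was -0.17 (95% interval -0.53 to 0.20, adjusted p = 0.722), in values close to the test level.

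The genes whose 8 array values ran closest to SEPTIN10 were chosen by Pearson correlation among the tested genes. They were ZNF704 (r = 0.99), MPP3 (0.99), AIF1L (0.98), MCOLN2 (0.97) and SCRT2 (0.97), and the opposite ones were MGC70870 (-0.98), ATP6V0A1 (-0.98), ADAMTS1 (-0.97), CD48 (-0.96) and PRR14L (-0.96). ZNF704, a zinc finger gene, had 5.30 and 4.98 after LY2784544, 6.59 and 6.78 after GRN163L and 6.24 and 6.33 after the combination, against 6.55 and 6.59 in control. CD48, a surface glycoprotein of blood cells, had 6.17 and 6.37 after LY2784544, 5.01 and 5.40 after GRN163L and 5.37 and 5.31 after the combination, against 5.08 and 5.23 in control. Among the septins SEPTIN1 (0.76) and SEPTIN4 (0.75) ran closest to SEPTIN10 and SEPTIN2 (-0.04) least. Among all tested genes these correlations lay at percentiles 96.0, 95.7 and 41.3. All these are descriptions over 8 arrays that share the 4 groups.

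**Figure D5:**
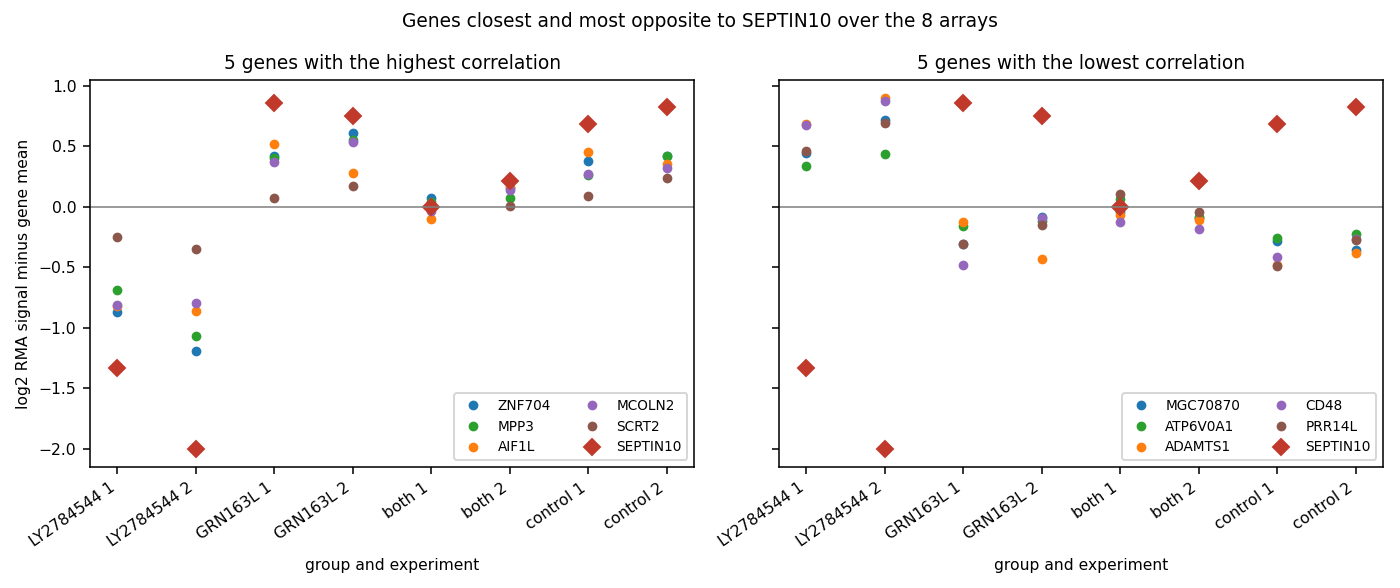
Log2 signal minus the gene's own mean, on each array, for SEPTIN10 and the genes most alike and most opposite to it by Pearson correlation over the 8 arrays. The like genes are lowest and the opposite ones highest after LY2784544.

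Of the remaining family members with a probe set of their own, SEPTIN3, SEPTIN12 and SEPTIN14 stayed under the test level. SEPTIN3 averaged 3.95 after LY2784544, 3.85 after GRN163L and 4.14 after the combination, against 3.92 in control. SEPTIN12 averaged 3.19, 3.35 and 3.49 after LY2784544, GRN163L and the combination, against 3.27 in control. SEPTIN14 averaged 3.82, 3.31 and 3.39 after LY2784544, GRN163L and the combination, against 3.50 in control. No test was made on them.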

How the data were processed

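Log2 signals of 33297 probe sets on 8 arrays were used as deposited. The authors made them with RMA in Affymetrix Expression Console, per the submitters' processing notes, from 150 ng of total RNA. RMA subtracts background, quantile-normalizes the arrays and compresses dim signals. The genome build is not given in the sources used here, and the log base of the deposited log2 values was inferred from their range. The probe set of highest mean among those annotated to 1 gene stood for each of 17958 genes, and the 12570 above the 30th percentile (4.37) were tested.

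A model of 4 group means was fitted with limma 3.58.1 in R 4.3.3, and the fitting code was checked on simulated arrays with known changes. The fit had 4 residual degrees of freedom plus 4.65 from moderation, and called genes at a Benjamini-Hochberg adjusted p below 0.05. Same-numbered arrays came from the same experiment per the labels, and their deviations correlated with r = 0.10 to 0.67, so the experiment as a block was the paired alternative. No array was a copy of another, with at most 1.9% identical values between any pair.

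The septins, the gene lists and the tests were chosen with earlier results of these data known. Genes named were the septins, up to 4 members of each list with the smallest p against control, the neighbours of SEPTIN10 and the 5 genes most like and most opposite to it, and others were chosen after their values were seen. Alternatives were the block, other filters, the compared groups alone, quantile or median normalization, robust moderation, a mean-variance trend, probe sets averaged per gene, and each array left out. The number of arrays limits the precision.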

Additional observations from a re-analysis of the deposited data

Results flagged for a closer look

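Probe sets that the annotation gives to SEPTIN5 together with GP1BB were left out of the comparisons, since their signal cannot be given to either gene. In 2 of 3 such probe sets the groups that held LY2784544 stood at least 0.5 above control. Probe set 8071259 had 6.24 and 6.71 after LY2784544, 5.98 and 5.86 after GRN163L and 6.28 and 6.65 after the combination, against 5.90 and 5.84 in control. Its difference from control was 0.61 after LY2784544 and 0.60 after the combination. Probe set 8071268 had 6.32 and 6.99 after LY2784544, 6.16 and 6.12 after GRN163L and 6.47 and 7.16 after the combination, against 6.18 and 6.04 in control. Its difference was 0.55 after LY2784544 and 0.71 after the combination. These were picked after their values were seen, for arrays above both controls and a mean at least 0.5 higher, and were not tested. The third, 8071234, did not meet that rule, with 6.11 and 6.31 after LY2784544, 5.72 and 5.39 after GRN163L and 5.82 and 6.09 after the combination, against 5.69 and 5.76 in control.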

How the results depend on the processing

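The count of septins past the threshold in LY2784544 against control, 1, is SEPTIN10 itself and no test of it. It was 0 with the filter at the 50th percentile, which removes SEPTIN10 by construction, and 0 to 1 when 1 array was left out, with 0 without control replicate 2 (SEPTIN10 -2.36). In the combination against control the count of 0 became 1 with the experiment as a replicate block (SEPTIN8), which changed no other septin's call. In the combination against LY2784544 the count of 1 was again SEPTIN10, whose choice used these LY2784544 arrays, so it is no test of it. That count was 0 with the 50th percentile filter and 0 in a fit on only the compared groups. It was not kept in every fit that left 1 array out. The counts of the other 3 contrasts stayed at 0. No value that passed the threshold changed sign. SEPTIN10's difference from control ranged from -2.76 to -2.09 after LY2784544 and from -0.76 to -0.48 after the combination. Against LY2784544 the combination ranged from 1.44 to 2.22, and against GRN163L from -0.81 to -0.51. Without both experiment 1 arrays that hold LY2784544, an alternative chosen after seeing the data, these were -2.76 and -0.54 against control and 2.22 against LY2784544. Under median normalization SEPTIN6 and SEPTIN11 after LY2784544, SEPTIN11 after GRN163L, SEPTIN9 after the combination and SEPTIN4, SEPTIN6 and SEPTIN9 in the combination against GRN163L changed the sign of differences that had not passed, and the last 3 did so under quantile normalization too. A fit without an array assumes that the lone array left in its group varies like the others. With 2 arrays a group, small differences between the septins cannot be resolved.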
